A study of Mus musculus with 20 samples.

Results

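Macrophages and dendritic cells were followed through 42 of their genes, taken from a written list of symbols and described by what is known of them. Earlier results of these data were known when the list was chosen. The list holds 21 general genes of macrophages and other leukocytes, 7 genes of tissue-resident macrophages, 10 genes of activated macrophages and 4 dendritic cell genes. All 42 genes were measured, each by 1 probe set, out of 19938 genes on the array. The 20 samples came from C57bl6/J mice in 6 groups. Islets of females, isolated with collagenase and never transplanted, came from non-pregnant mice (NP islets, n = 4) and from mice on day 12.5 of pregnancy (P12.5 islets, n = 4). Female islet grafts and male islet grafts are named by the sex of the islet donor, and each was taken from NP and from P12.5 hosts (n = 3 in each of the 4 groups). All graft hosts were young adult females that had been made diabetic with streptozotocin, a beta cell toxin, before islets were placed under the kidney capsule, and hosts were mated only once their blood glucose had recovered. The labels mark the islet arrays as a reanalysis and the methods describe no streptozotocin for those mice, so array batch, streptozotocin and transplantation cannot be told apart wherever grafts are set against islets. In such bulk samples fewer cells of a type and less RNA per cell cannot be told apart either. As every host was female, donor sex also cannot be told apart from a sex mismatch between donor and host. Samples are labelled as biological replicates without naming animals, and the spread that p-values rest on may in part be technical.

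Macrophages are phagocytes that settle in nearly every tissue, where colony stimulating factor 1 acts through its receptor, the product of Csf1r, to keep them alive, and where the transcription factor PU.1, encoded by Spi1, drives much of their gene programme. Islets and kidney both hold resident macrophages, and monocytes from the blood can add to them after injury. Dendritic cells take up antigen and present it to T cells, and they share many surface genes with macrophages, Itgax among them.

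Levels are deposited log2 values, on which a difference of 1 is a doubling. The lower quartile of the probe sets of an array was 4.7 to 4.9, the region where a transcript can hardly be told from background. Differences are given with the standard error of the limma fit, and a gene was called where the adjusted p was under 0.05 and the fold at least 1.5. The tissue labels were borne out by islet endocrine genes, whose mean level per array lay between 11.26 and 11.97 in all 6 groups. Genes on the Y chromosome were higher in all 6 male graft arrays than in any other array.

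The largest contrast was between grafts and islets. In NP mice 33 of the 42 genes were higher in female grafts than in islets, against 5.99% of all probe sets called up, and 1 was lower, against 5.02% called down. In P12.5 mice 34 genes were higher, against 2.83% of all probe sets, and 0 were lower, against 1.22%. Groups did not overlap, with the grafts higher, for 34 genes in NP mice (11.6% of all probe sets) and 35 genes in P12.5 mice (7.73%). For 33 genes every one of the 12 graft arrays, male and female, lay above every one of the 8 islet arrays, which held for 3.26% of all probe sets. These were 20 of the 21 general genes, 4 of the 7 resident genes, 6 of the 10 activated genes and 3 of the 4 dendritic genes. The median difference between female NP grafts and NP islets was 1.73 for general, 0.88 for resident, 1.10 for activated and 0.98 for dendritic genes, beside -0.075 over all probe sets. In P12.5 mice the medians were 1.88, 1.10, 0.92 and 0.92 in that order. The classes were not tested against each other. Because the 42 genes were chosen with earlier results of these data known, their excess over all probe sets is a description and no test.

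**Figure D1:**
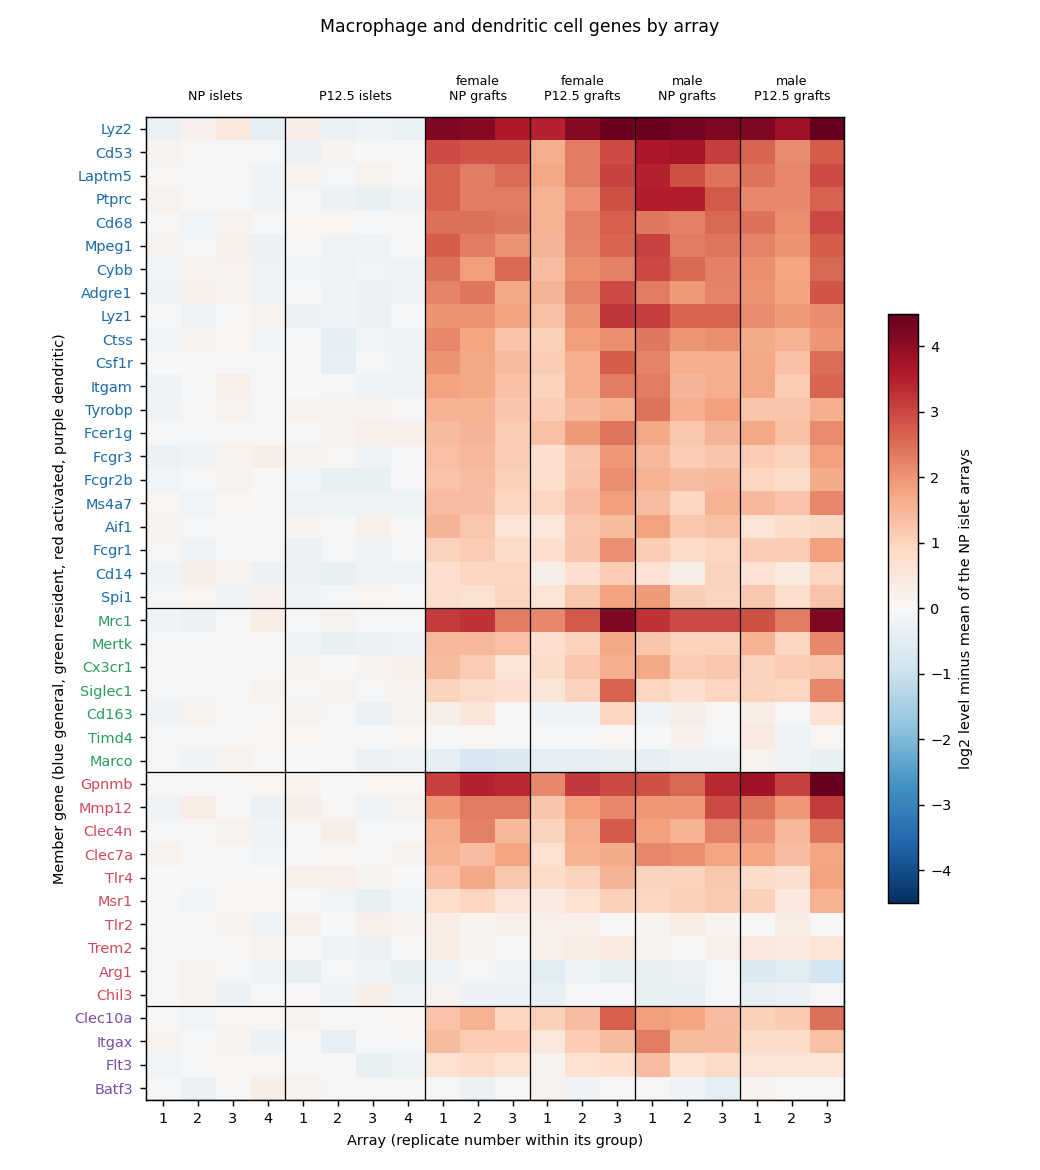
Log2 level of each of the 42 genes (lines, name colour by class) in each of the 20 arrays (columns, by group and replicate number), as a difference from the mean of the NP islet arrays on the colour scale. For 33 genes all 12 graft arrays lie above all 8 islet arrays, while Chil3, Timd4 and Batf3 stay near the islet mean and Arg1 lies below it in male P12.5 grafts (6.0 to 6.3 beside 6.7 to 7.0 in NP islets).

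Among the general genes all 21 rose in female grafts in both states. Ptprc encodes CD45, the phosphatase on the surface of all white blood cells. Levels of Ptprc were 5.9, 5.8, 5.7 and 5.6 in the NP islets and 5.7, 5.5, 5.4 and 5.6 in the P12.5 islets. In female grafts Ptprc was at 8.4, 8.1 and 8.1 in NP hosts and 7.3, 7.8 and 8.6 in P12.5 hosts, and in male grafts at 9.3, 9.3 and 8.5 in NP hosts and 7.9, 7.9 and 8.4 in P12.5 hosts. Every graft array was above every islet array, and male NP arrays 1 and 2 held the highest values. The difference was 2.45 ± 0.24 (adjusted p = 5.96e-06) in NP mice and 2.35 ± 0.24 (adjusted p = 1.12e-05) in P12.5 mice. Csf1r, the receptor for colony stimulating factor 1, separates macrophages from lymphocytes. Levels of Csf1r were 6.6, 6.6, 6.6 and 6.5 in the NP islets and 6.6, 6.2, 6.5 and 6.4 in the P12.5 islets. In female grafts Csf1r was at 8.6, 8.3 and 8.0 in NP hosts and 7.7, 8.2 and 9.3 in P12.5 hosts, and in male grafts at 8.8, 8.2 and 8.2 in NP hosts and 8.3, 7.9 and 9.1 in P12.5 hosts. Grafts and islets did not overlap. Adgre1 encodes the surface glycoprotein by which mouse macrophages are most often recognised. Levels of Adgre1 were 5.2, 5.6, 5.5 and 5.2 in the NP islets and 5.4, 5.2, 5.1 and 5.2 in the P12.5 islets. In female grafts Adgre1 was at 7.6, 7.8 and 7.1 in NP hosts and 6.9, 7.6 and 8.3 in P12.5 hosts, and in male grafts at 7.7, 7.3 and 7.6 in NP hosts and 7.4, 7.2 and 8.2 in P12.5 hosts. The highest islet array reached 5.6, while the lowest graft array was at 6.9.

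Cd68, a lysosomal membrane protein of phagocytes, showed the same separation. Levels of Cd68 were 6.2, 6.1, 6.4 and 6.2 in the NP islets and 6.3, 6.3, 6.2 and 6.2 in the P12.5 islets. In female grafts Cd68 was at 8.7, 8.7 and 8.6 in NP hosts and 7.8, 8.5 and 8.9 in P12.5 hosts, and in male grafts at 8.6, 8.5 and 8.8 in NP hosts and 8.7, 8.3 and 9.2 in P12.5 hosts. Lyz2 encodes the lysozyme of macrophages and neutrophils, and its paralogue Lyz1 the lysozyme best known from Paneth cells. Levels of Lyz2 were 5.9, 6.4, 6.7 and 5.8 in the NP islets and 6.5, 5.9, 6.0 and 5.9 in the P12.5 islets. In female grafts Lyz2 was at 10.4, 10.3 and 9.8 in NP hosts and 9.7, 10.3 and 10.6 in P12.5 hosts, and in male grafts at 10.6, 10.5 and 10.4 in NP hosts and 10.4, 10.0 and 10.7 in P12.5 hosts. Levels of Lyz1 were 5.6, 5.4, 5.6 and 5.7 in the NP islets and 5.3, 5.4, 5.3 and 5.5 in the P12.5 islets. In female grafts Lyz1 was at 7.6, 7.6 and 7.4 in NP hosts and 6.9, 7.6 and 8.8 in P12.5 hosts, and in male grafts at 8.7, 8.2 and 8.2 in NP hosts and 7.7, 7.5 and 7.7 in P12.5 hosts. Both genes were higher in every graft array than in any islet array. The 3 largest differences of general genes in NP mice were those of Lyz2 (3.97 ± 0.24, adjusted p = 2.51e-08), of the tetraspanin Cd53 (2.86 ± 0.22, adjusted p = 4.81e-07) and of the lysosomal protein Laptm5 (2.52 ± 0.25, adjusted p = 6.99e-06). In P12.5 mice the 3 largest of general genes were Lyz2 (4.13 ± 0.24, adjusted p = 1.15e-08), Lyz1 (2.39 ± 0.27, adjusted p = 3.66e-05) and Adgre1 (2.38 ± 0.27, adjusted p = 3.23e-05). Lyz1 and Lyz2 are so alike in sequence that their probe sets may share signal, and the Fc receptors Fcgr1, Fcgr2b and Fcgr3 form a similar family, so these genes are not independent readings.

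The other general genes rose by 0.83 to 2.36 in NP mice. They comprised the lysosomal protease Ctss, the pore-forming protein Mpeg1, the oxidase subunit Cybb, the integrin Itgam, the adaptors Fcer1g and Tyrobp, the calcium-binding Aif1, the endotoxin co-receptor Cd14, the membrane protein Ms4a7, the 3 Fc receptors and Spi1 itself. Spi1 had the smallest difference in NP mice (0.83 ± 0.23, adjusted p = 0.0142) and Cd14 in P12.5 mice (0.94 ± 0.20, adjusted p = 0.008). Cd14 was the 1 general gene for which a graft array did not clear all islet arrays, because graft levels of 5.7 in female P12.5 array 1 and male NP array 2 met the highest islet level of 5.7. All 8 islet levels of Ms4a7 and 5 of those of Itgam were at or under 4.9, so the differences of these genes are not exact sizes.

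Promoters of general genes are shown because PU.1 binds purine-rich sites with a GGAA core. A part of PU.1 in the differences between grafts and islets was not tested. RefSeq promoters (build GRCm38.p6) were found for 31 of the 42 genes, as 36 windows of the 250 bases before a start site. The letters GAGGAA, or TTCCTC where the motif lies on the other strand, stood in 17 of these 36 windows (47.2%) and in 10 of the 19 windows of general genes (52.6%), beside 23.3% of all 32851 windows. A match is a description of letters and not a binding site. Only windows that hold a match are printed, in order of the general genes' difference between female NP grafts and NP islets. Lyz2, with the largest difference, gave none. The 4 windows below are written 5′ to 3′ on the strand of the gene, with the match in capitals. Cd53 lies at chr3:106790150-106790399 on the minus strand, Laptm5 at chr4:130913066-130913315 on the plus strand, Ptprc at chr1:138175306-138175555 on the minus strand (1 of its 2 windows holds the match) and Cd68 at chr11:69666171-69666420 on the minus strand.
Cd53: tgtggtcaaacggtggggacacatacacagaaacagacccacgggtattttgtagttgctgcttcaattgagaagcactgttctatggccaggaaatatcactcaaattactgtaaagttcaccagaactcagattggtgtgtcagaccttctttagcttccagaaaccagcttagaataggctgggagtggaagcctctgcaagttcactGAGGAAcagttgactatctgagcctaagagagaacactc
Laptm5: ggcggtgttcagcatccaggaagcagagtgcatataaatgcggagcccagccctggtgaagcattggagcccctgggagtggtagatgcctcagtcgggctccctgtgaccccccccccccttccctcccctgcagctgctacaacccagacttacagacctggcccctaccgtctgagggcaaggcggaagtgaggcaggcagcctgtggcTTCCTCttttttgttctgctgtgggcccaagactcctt
Ptprc: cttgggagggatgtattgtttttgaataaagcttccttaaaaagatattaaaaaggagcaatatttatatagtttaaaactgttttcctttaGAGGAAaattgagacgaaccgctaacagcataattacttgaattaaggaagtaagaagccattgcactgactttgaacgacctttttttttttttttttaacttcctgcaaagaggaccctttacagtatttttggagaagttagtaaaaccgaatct
Cd68: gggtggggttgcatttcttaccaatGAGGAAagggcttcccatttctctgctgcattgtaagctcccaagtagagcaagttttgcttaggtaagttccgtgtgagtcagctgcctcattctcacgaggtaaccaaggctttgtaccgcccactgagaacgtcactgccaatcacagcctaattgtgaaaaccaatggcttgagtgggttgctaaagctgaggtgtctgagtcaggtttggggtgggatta
In Cd53 and Laptm5 the match began 39 and 38 bases before the start site, in Ptprc 158 bases and in Cd68 225 bases before it.

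Resident genes were divided. Mrc1 encodes the mannose receptor CD206 of resident and alternatively activated macrophages. Levels of Mrc1 were 4.6, 4.5, 4.8 and 5.1 in the NP islets and 4.8, 4.9, 4.7 and 4.7 in the P12.5 islets. In female grafts Mrc1 was at 7.9, 8.0 and 7.1 in NP hosts and 6.9, 7.5 and 8.9 in P12.5 hosts, and in male grafts at 8.0, 7.7 and 7.7 in NP hosts and 7.6, 7.1 and 8.9 in P12.5 hosts. The difference was 2.92 ± 0.40 (adjusted p = 0.00011) in NP mice and 2.99 ± 0.40 (adjusted p = 0.000149) in P12.5 mice, although 7 of the 8 islet levels were at or under 4.9, so the sizes are not exact. Mertk encodes a receptor kinase that recognises apoptotic cells. Levels of Mertk were 5.6, 5.7, 5.6 and 5.7 in the NP islets and 5.5, 5.3, 5.4 and 5.5 in the P12.5 islets. In female grafts Mertk was at 7.1, 7.1 and 7.0 in NP hosts and 6.4, 6.7 and 7.4 in P12.5 hosts, and in male grafts at 6.9, 6.7 and 6.7 in NP hosts and 7.2, 6.6 and 7.8 in P12.5 hosts. Grafts were above islets by 1.42 ± 0.22 (adjusted p = 0.000256) and 1.41 ± 0.22 (adjusted p = 0.000698) in the 2 states. Cx3cr1, the fractalkine receptor of monocytes and many resident macrophages, also rose. Levels of Cx3cr1 were 6.5, 6.5, 6.4 and 6.5 in the NP islets and 6.6, 6.5, 6.6 and 6.7 in the P12.5 islets. In female grafts Cx3cr1 was at 7.9, 7.6 and 7.1 in NP hosts and 7.3, 7.7 and 8.1 in P12.5 hosts, and in male grafts at 8.2, 7.6 and 7.7 in NP hosts and 7.5, 7.6 and 7.7 in P12.5 hosts. Its differences were 1.06 ± 0.18 (adjusted p = 0.000611) and 1.10 ± 0.18 (adjusted p = 0.00134).

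Siglec1 encodes sialoadhesin, a lectin of macrophages in lymphoid organs. Levels of Siglec1 were 5.7, 5.7, 5.7 and 5.9 in the NP islets and 5.7, 5.9, 5.7 and 5.9 in the P12.5 islets. In female grafts Siglec1 was at 6.8, 6.6 and 6.5 in NP hosts and 6.3, 6.8 and 8.4 in P12.5 hosts, and in male grafts at 6.7, 6.5 and 6.7 in NP hosts and 6.8, 6.7 and 7.9 in P12.5 hosts. All graft arrays lay above all islet arrays, with female P12.5 array 3 at 8.4 and male P12.5 array 3 at 7.9, while no other graft array exceeded 6.8. Siglec1 was called in P12.5 mice (1.37 ± 0.34, adjusted p = 0.0234) and not in NP mice (0.88 ± 0.34, adjusted p = 0.0622). The P12.5 call was lost without female P12.5 graft array 3 (0.75, adjusted p = 0.109), without P12.5 islet array 1 (adjusted p = 0.0505) or 3 (adjusted p = 0.0545), and in a fit of only the compared groups (adjusted p = 0.0928).

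The remaining resident genes did not follow. Cd163, a haemoglobin scavenger receptor, was at or under 4.9 in 16 of the 20 arrays. Levels of Cd163 were 4.5, 4.8, 4.6 and 4.7 in the NP islets and 4.8, 4.6, 4.4 and 4.8 in the P12.5 islets. In female grafts Cd163 was at 4.9, 5.2 and 4.7 in NP hosts and 4.5, 4.5 and 5.6 in P12.5 hosts, and in male grafts at 4.5, 4.9 and 4.7 in NP hosts and 5.0, 4.6 and 5.3 in P12.5 hosts. Female NP grafts and NP islets overlapped (0.28 ± 0.22, adjusted p = 0.36). Timd4, which encodes a phosphatidylserine receptor of long-lived resident macrophages, was likewise near the lower quartile. Levels of Timd4 were 4.8, 4.9, 4.9 and 5.0 in the NP islets and 5.0, 4.9, 4.9 and 5.0 in the P12.5 islets. In female grafts Timd4 was at 4.9, 5.0 and 4.8 in NP hosts and 4.8, 4.8 and 5.0 in P12.5 hosts, and in male grafts at 4.9, 5.1 and 4.8 in NP hosts and 5.3, 4.7 and 5.0 in P12.5 hosts. The groups overlapped, with differences of 0.00 ± 0.12 (adjusted p = 1) and -0.08 ± 0.12 (adjusted p = 0.709). Marco encodes a scavenger receptor of alveolar and marginal zone macrophages. Levels of Marco were 5.9, 5.8, 6.1 and 6.0 in the NP islets and 5.9, 5.9, 5.7 and 5.8 in the P12.5 islets. In female grafts Marco was at 5.5, 5.2 and 5.3 in NP hosts and 5.5, 5.5 and 5.6 in P12.5 hosts, and in male grafts at 5.5, 5.7 and 5.7 in NP hosts and 6.1, 5.8 and 5.6 in P12.5 hosts. It was the 1 gene of the 42 that was called lower in grafts (-0.62 ± 0.11, adjusted p = 0.000904 in NP mice), with all female NP graft values below all NP islet values. In P12.5 mice the difference was -0.29 ± 0.11 (adjusted p = 0.128) and was not called. Male P12.5 graft arrays 1 and 2, at 6.1 and 5.8, reached the levels of the P12.5 islets. The NP fold fell below 1.5 once array medians were subtracted (-0.58), after repeated quantile normalization (-0.55), without NP islet array 3 (-0.57) or without female NP graft array 2 (-0.55).

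Activated genes were divided too. Gpnmb, a glycoprotein of lipid-laden and lysosome-stressed macrophages, rose most. Levels of Gpnmb were 5.0, 5.0, 5.0 and 5.1 in the NP islets and 5.2, 5.0, 5.1 and 5.1 in the P12.5 islets. In female grafts Gpnmb was at 8.1, 8.5 and 8.4 in NP hosts and 7.2, 8.2 and 8.0 in P12.5 hosts, and in male grafts at 7.9, 7.6 and 8.4 in NP hosts and 8.8, 8.1 and 9.6 in P12.5 hosts. The highest islet array was at 5.2 and the lowest graft array at 7.2. The difference was 3.31 ± 0.27 (adjusted p = 9.59e-07) in NP mice and 2.70 ± 0.27 (adjusted p = 1.05e-05) in P12.5 mice. Mmp12 encodes macrophage elastase. Levels of Mmp12 were 5.7, 6.2, 5.9 and 5.6 in the NP islets and 6.1, 5.9, 5.7 and 6.0 in the P12.5 islets. In female grafts Mmp12 was at 7.8, 8.2 and 8.2 in NP hosts and 7.1, 7.7 and 8.0 in P12.5 hosts, and in male grafts at 7.8, 7.8 and 8.8 in NP hosts and 8.3, 7.8 and 9.0 in P12.5 hosts. Its differences were 2.22 ± 0.28 (adjusted p = 5.51e-05) and 1.68 ± 0.28 (adjusted p = 0.00133), with male P12.5 array 3 the highest of all.

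Clec7a, the beta-glucan receptor dectin-1, was higher in every graft array than in any islet array. Levels of Clec7a were 5.1, 4.9, 4.9 and 4.8 in the NP islets and 4.9, 5.0, 4.9 and 5.1 in the P12.5 islets. In female grafts Clec7a was at 6.5, 6.3 and 6.7 in NP hosts and 5.6, 6.5 and 6.6 in P12.5 hosts, and in male grafts at 7.1, 7.0 and 6.7 in NP hosts and 6.7, 6.3 and 6.7 in P12.5 hosts. The differences were 1.58 ± 0.19 (adjusted p = 3.74e-05) and 1.26 ± 0.19 (adjusted p = 0.000527). Its relative Clec4n, which encodes dectin-2, rose by 1.78 ± 0.31 (adjusted p = 0.000575) and 1.77 ± 0.31 (adjusted p = 0.00188). The endotoxin receptor Tlr4 (1.43 and 0.97) and the scavenger receptor Msr1 (0.78 and 0.86) were the remaining 2 of the 6 activated genes called in both states. All 8 islet levels of Clec4n, Tlr4 and Msr1 and 5 of those of Clec7a were at or under 4.9, so these are not exact sizes.

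Trem2, which encodes a lipid receptor that signals through Tyrobp, was not called in either state. Levels of Trem2 were 6.5, 6.5, 6.6 and 6.7 in the NP islets and 6.6, 6.4, 6.3 and 6.5 in the P12.5 islets. In female grafts Trem2 was at 6.9, 6.7 and 6.5 in NP hosts and 6.8, 6.9 and 7.0 in P12.5 hosts, and in male grafts at 6.7, 6.6 and 6.8 in NP hosts and 7.1, 7.0 and 7.2 in P12.5 hosts. In NP mice the groups overlapped (0.13 ± 0.10, adjusted p = 0.378). In P12.5 mice the female grafts lay above the islets, with an adjusted p under the threshold but a fold below 1.5 (0.45 ± 0.10, adjusted p = 0.0136). Arg1, the arginase of alternatively activated macrophages, was not called in either state. Levels of Arg1 were 6.9, 7.0, 6.8 and 6.7 in the NP islets and 6.5, 6.8, 6.7 and 6.5 in the P12.5 islets. In female grafts Arg1 was at 6.7, 6.9 and 6.7 in NP hosts and 6.3, 6.7 and 6.5 in P12.5 hosts, and in male grafts at 6.5, 6.6 and 6.8 in NP hosts and 6.2, 6.3 and 6.0 in P12.5 hosts. The differences were -0.08 ± 0.12 (adjusted p = 0.621) and -0.13 ± 0.12 (adjusted p = 0.557). Chil3, which encodes the chitinase-like protein Ym1, was at or under 4.9 in all 20 arrays. Levels of Chil3 were 4.1, 4.2, 3.8 and 4.1 in the NP islets and 4.1, 3.9, 4.3 and 3.9 in the P12.5 islets. In female grafts Chil3 was at 4.2, 3.8 and 3.8 in NP hosts and 3.7, 4.0 and 4.0 in P12.5 hosts, and in male grafts at 3.7, 3.7 and 4.0 in NP hosts and 3.7, 3.8 and 4.0 in P12.5 hosts. No group stood apart. Tlr2, which senses bacterial lipoproteins, was at similar levels in islets (7.1 to 7.5) and grafts (7.3 to 7.6), and was not called (0.23 ± 0.10, adjusted p = 0.104 and 0.01 ± 0.10, adjusted p = 0.972).

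Dendritic cell genes rose in 3 of 4 cases. Itgax encodes CD11c. Levels of Itgax were 6.0, 5.9, 6.0 and 5.6 in the NP islets and 5.9, 5.5, 5.8 and 5.8 in the P12.5 islets. In female grafts Itgax was at 7.3, 7.0 and 7.0 in NP hosts and 6.4, 7.0 and 7.3 in P12.5 hosts, and in male grafts at 8.2, 7.3 and 7.3 in NP hosts and 6.7, 6.7 and 7.2 in P12.5 hosts. All graft arrays were above all islet arrays, and the differences were 1.23 ± 0.22 (adjusted p = 0.000832) and 1.15 ± 0.22 (adjusted p = 0.00454). Flt3 is the receptor kinase on which dendritic cell development depends. Levels of Flt3 were 5.4, 5.5, 5.6 and 5.6 in the NP islets and 5.5, 5.5, 5.2 and 5.3 in the P12.5 islets. In female grafts Flt3 was at 6.2, 6.4 and 6.2 in NP hosts and 5.7, 6.2 and 6.3 in P12.5 hosts, and in male grafts at 6.9, 6.2 and 6.4 in NP hosts and 6.1, 6.1 and 6.1 in P12.5 hosts. It rose by 0.74 ± 0.15 (adjusted p = 0.002) and 0.69 ± 0.15 (adjusted p = 0.0104). The P12.5 call of Flt3 was lost without female P12.5 graft array 2 (0.63, adjusted p = 0.0506) or array 3 (0.58, adjusted p = 0.0775).

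Clec10a, a lectin of conventional dendritic cells and some macrophages, spread widely among the grafts. Levels of Clec10a were 4.7, 4.6, 4.8 and 4.8 in the NP islets and 4.9, 4.7, 4.7 and 4.8 in the P12.5 islets. In female grafts Clec10a was at 6.0, 6.3 and 5.7 in NP hosts and 5.8, 6.1 and 7.4 in P12.5 hosts, and in male grafts at 6.6, 6.5 and 6.1 in NP hosts and 5.8, 5.9 and 7.2 in P12.5 hosts. Its differences were 1.28 ± 0.32 (adjusted p = 0.00798) and 1.66 ± 0.32 (adjusted p = 0.00481), against islet levels that were all at or under 4.9. Batf3, a transcription factor of cross-presenting dendritic cells that other cells express too, did not follow. Levels of Batf3 were 6.4, 6.2, 6.5 and 6.7 in the NP islets and 6.6, 6.5, 6.5 and 6.5 in the P12.5 islets. In female grafts Batf3 was at 6.4, 6.2 and 6.5 in NP hosts and 6.6, 6.3 and 6.5 in P12.5 hosts, and in male grafts at 6.5, 6.3 and 6.0 in NP hosts and 6.6, 6.4 and 6.5 in P12.5 hosts. The groups overlapped, with differences of -0.08 ± 0.13 (adjusted p = 0.647) and -0.06 ± 0.13 (adjusted p = 0.82).

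**Figure D2:**
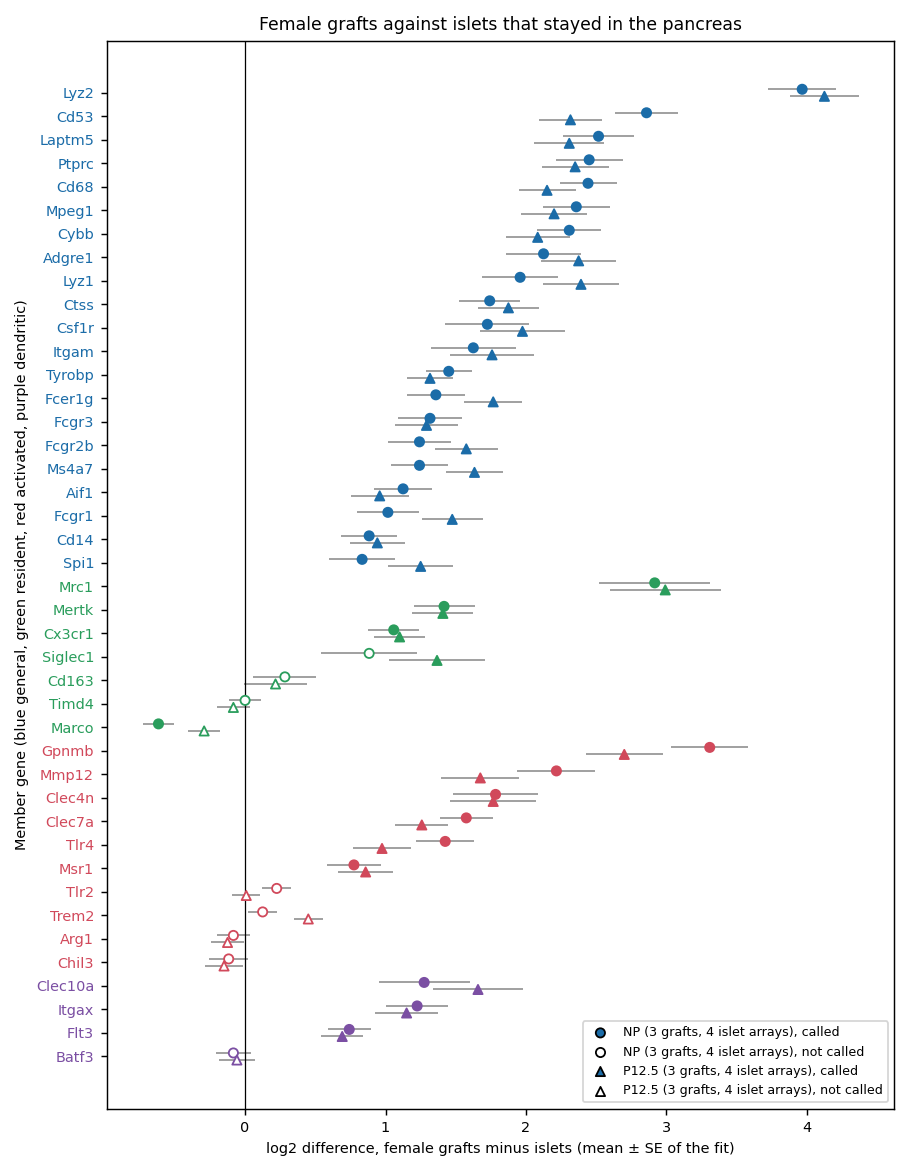
Mean log2 difference between female grafts and islets for each of the 42 genes in NP and in P12.5 mice, with the standard error of the fit as bars. All 21 general genes lie to the right of 0, Lyz2 the farthest in both states (3.97 in NP mice). Cd163, Timd4, Arg1, Chil3, Tlr2 and Batf3 lie near 0 and Marco to its left.

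Further myeloid genes were taken from written lists of growth factors and receptors, transcription factors, signalling and oxidase genes, resident, lipid and lysosome, inflammatory, dendritic and monocyte genes. These lists too were chosen with earlier results of these data known. Of 61 measured, 31 were called higher and 0 lower in female NP grafts than in NP islets, and 34 higher and 0 lower in P12.5 mice. Beside these stand 5.99% of all probe sets called higher and 5.02% lower in NP mice, and 2.83% and 1.22% in P12.5 mice. The lysosome and lipid genes held some of the largest differences, with Cd36, the fatty acid scavenger receptor, at 2.79 ± 0.32 (adjusted p = 2.45e-05) and Lipa, lysosomal acid lipase, at 2.51 ± 0.22 (adjusted p = 1.36e-06) in NP mice. The signalling and oxidase genes rose in 8 of 10 cases in both states, led by Nckap1l, a regulator of the leukocyte cytoskeleton (1.83 ± 0.25, adjusted p = 0.000124). Among transcription factors Runx1 (1.24 ± 0.24, adjusted p = 0.00156), Maf (1.11 ± 0.23, adjusted p = 0.00207) and Irf8 (1.04 ± 0.21, adjusted p = 0.00212) rose in NP mice. Ccr2, the chemokine receptor of monocytes from the blood, was higher by 1.74 ± 0.26 (adjusted p = 0.000197). Of the 10 further dendritic genes, Clec9a (1.48 ± 0.26, adjusted p = 0.000776) and Xcr1 (0.95 ± 0.11, adjusted p = 2.99e-05), both of cross-presenting dendritic cells, rose in NP mice. Cd86 (1.43 ± 0.20, adjusted p = 0.000151) and Cd209a (1.11 ± 0.18, adjusted p = 0.000363) rose too, and the rest were not called in NP mice. In P12.5 mice Clec9a was called and Xcr1 was not. Of 7 inflammatory and alternative activation genes, 1 was called in each state, the cytokine gene Il1b (0.66 ± 0.17, adjusted p = 0.00966 in NP mice and 0.63 ± 0.17, adjusted p = 0.0373 in P12.5 mice). The growth factor gene Csf1 rose by 0.69 ± 0.15 (adjusted p = 0.00247) and 0.85 ± 0.15 (adjusted p = 0.00175). Several of these genes, Cd36, Lipa, Maf and Csf1 among them, are also expressed outside the myeloid lineage.

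Markers of other cells moved with the same contrast, and their part in it was not tested. Of all probe sets 5.99% were called up and 5.02% down in NP mice, and 2.83% and 1.22% in P12.5 mice. Kidney genes were called up in 17 of 27 cases in NP mice and 5 of 27 in P12.5 mice, with mean levels per array of 5.59 to 5.73 in islets and 5.95 to 8.17 in grafts. Stromal genes rose in 9 and 8 of 12 cases (6.32 to 6.72 in islets, 7.93 to 9.52 in grafts). Lymphocyte genes rose in 7 and 5 of 19 cases (5.08 to 5.24 in islets, 5.41 to 6.68 in grafts). Acinar genes fell in 7 of 9 cases in both states (8.0 to 9.72 in islets, 5.20 to 5.50 in grafts), and endothelial genes fell in 8 and 3 of 14 cases (7.49 to 7.71 in islets, 6.46 to 7.99 in grafts). Neutrophil genes stayed near the lower quartile everywhere (4.49 to 4.87), with 0 of 12 called up and 1 and 0 called down. In the graft array with the least kidney signal, female P12.5 array 2 at 5.95, the mean of the general genes was 7.70, beside 5.74 to 5.97 over the 8 islet arrays. In the array with the most, female NP array 1 at 8.17, it was 7.85. These arrays are only the extremes of kidney signal, and a relation of kidney to general genes over the grafts was not tested.

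**Figure D3:**
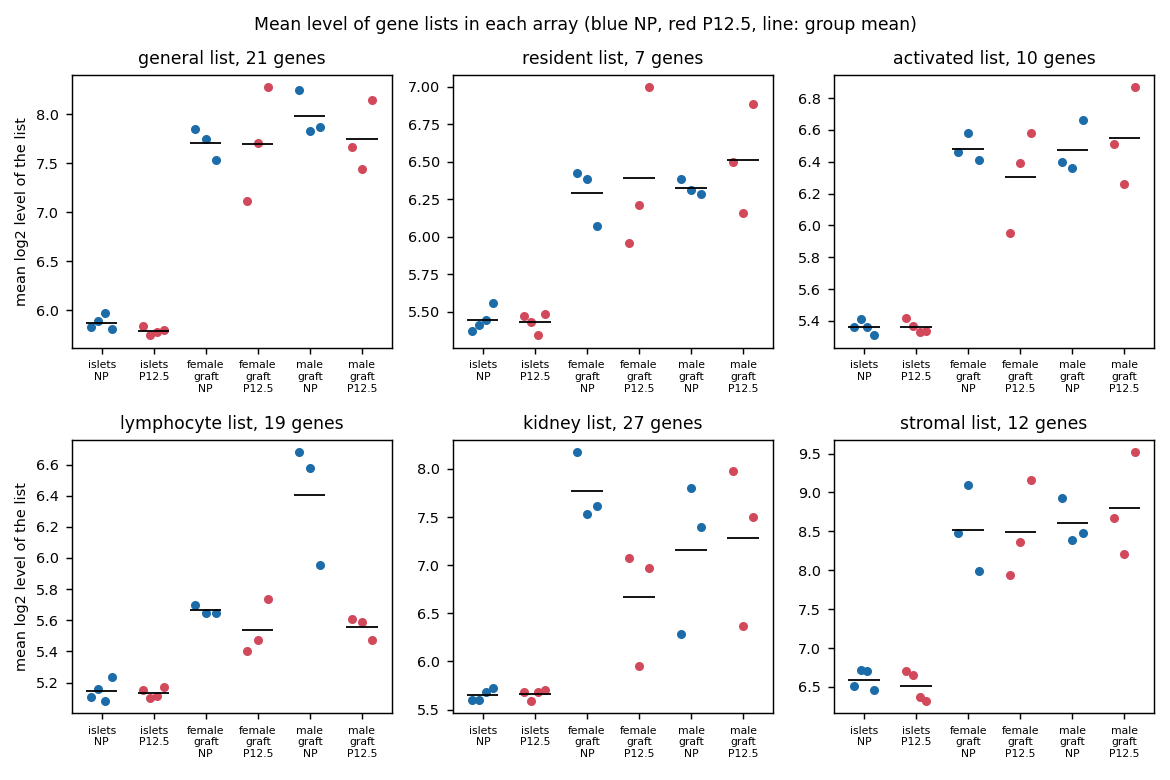
Mean log2 level of 6 gene lists in each array (points, blue NP and red P12.5) by group, with the group mean as a line; each panel has its own scale. General, resident and activated genes lie higher in all grafts than in all islets, as do kidney, stromal and lymphocyte genes, and lymphocyte genes are highest in male NP grafts.

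Grafts of the P12.5 groups differed among themselves more in these genes than in most. The median standard deviation of the 42 genes was 0.529 in female P12.5 grafts and 0.356 in male P12.5 grafts, beside 0.153 for all probe sets in both groups. It was 0.252 beside 0.153 in male NP grafts and 0.20 beside 0.173 in female NP grafts. In NP islets it was 0.126, beside 0.141 for all probe sets. Female P12.5 array 3 alone held the highest level of its group for 37 of the 42 genes, and array 1 alone the lowest for 37. Among male P12.5 grafts array 3 was highest for 34 genes and array 2 lowest for 30. The means of the general genes in female P12.5 arrays 1, 2 and 3 were 7.11, 7.70 and 8.28, and those of the stromal genes 7.93, 8.37 and 9.16. In male P12.5 arrays 1, 2 and 3 the general means were 7.67, 7.44 and 8.14 and the stromal means 8.68, 8.21 and 9.52. Both lists thus had the same order of arrays in these groups. The order also matched in male NP grafts (general 8.25, 7.83 and 7.87, stromal 8.93, 8.39 and 8.48). It did not match in female NP grafts (general 7.85, 7.74 and 7.53, stromal 8.48, 9.10 and 7.99). The order was not particular to stromal genes. Endothelial means had the order of the general means in every graft group, female NP grafts included (7.43, 6.91 and 6.49). Islet endocrine means were lowest in array 3 of the female and male P12.5 grafts (11.59 and 11.26). Kidney means did not have the general order in either P12.5 graft group. The part of these array orders in any result was not tested.

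With pregnancy 1 of the 42 genes was called, and only over grafts of both donor sexes. In islets 0 were called by limma (0.724% of all probe sets were called), and the smallest adjusted p was 0.211. An unadjusted p under 0.05 was found for 4 of the 42 genes, beside 4208 of all 35511 probe sets. P12.5 islets lay below NP islets without overlap for 2 genes, or 4.76% of the 42 (1.64% of all probe sets). They were Ms4a7, at 4.7, 4.5, 4.7 and 4.6 in NP islets and 4.4 in all 4 P12.5 islets (-0.23 ± 0.07, adjusted p = 0.211), and Mertk (-0.23 ± 0.07, adjusted p = 0.235). Levels of Ms4a7 were in the background region. In female grafts 0 genes were called (1.70% of all probe sets), and 0 had an unadjusted p under 0.05 (7529 of all 35511 probe sets). The smallest p-values were those of Cd53 (-0.57 ± 0.28, adjusted p = 0.283) and Arg1 (-0.27 ± 0.13, adjusted p = 0.283).

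In male grafts 0 genes were called as well (0.932% of all probe sets). An unadjusted p under 0.05 was found for 8 of the 42, a share close to the 6926 of all 35511 probe sets. The smallest p-values were those of Cd53 (-1.0 ± 0.28, adjusted p = 0.108) and Arg1 (-0.47 ± 0.13, adjusted p = 0.11). P12.5 lay below NP without overlap for 7 genes, namely Ptprc, Cd53, Aif1, Lyz1, Arg1, Itgax and Flt3, which is 16.7% of the 42 beside 9.38% of all probe sets. It lay above NP without overlap for 1 gene, Trem2, beside 8.72% of all probe sets. With all 20 arrays in one fit 2 of the 42 were called, both lower in P12.5, and Cd53 was 1 of them (-1.0, adjusted p = 0.0213).

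Over grafts of both donor sexes 1 gene was called, beside 3.96% of all probe sets in either direction and 2.00% called down. It was Cd53. Levels of Cd53 were 5.6, 5.5, 5.4 and 5.4 in the NP islets and 5.2, 5.6, 5.5 and 5.5 in the P12.5 islets. In female grafts Cd53 was at 8.4, 8.3 and 8.3 in NP hosts and 7.1, 7.8 and 8.4 in P12.5 hosts, and in male grafts at 9.1, 9.2 and 8.6 in NP hosts and 8.1, 7.6 and 8.2 in P12.5 hosts. Cd53 was lower in P12.5 than in NP grafts (-0.78 ± 0.20, adjusted p = 0.029), although female P12.5 array 3 and male P12.5 arrays 1 and 3, at 8.4, 8.1 and 8.2, lay close to the female NP values. With the replicate number as a block (-0.78, adjusted p = 0.0505) and with the mean of the kidney genes as a covariate (-0.73, adjusted p = 0.0849) the call was lost while the difference was about as large. It was also lost without any 1 of 6 arrays, female NP arrays 1, 2 and 3, female P12.5 array 2, male NP array 2 and male P12.5 array 2 (differences from -0.79 to -0.69, adjusted p from 0.0513 to 0.0679). Without female P12.5 array 3, 2 genes were called. Arg1 (-0.37 ± 0.10, adjusted p = 0.0299) and Trem2 (0.30 ± 0.09, adjusted p = 0.0414) had adjusted p-values under 0.05 but folds below 1.5, and were not called. Ptprc, which like Cd53 is expressed by lymphocytes too, was lower by a similar amount and did not pass (-0.63 ± 0.22, adjusted p = 0.0766). The lymphocyte genes were called down in 6 of 19 cases over both donor sexes and in 3 of 19 in male grafts. Their mean was 5.96 to 6.68 per array in male NP grafts and 5.41 to 5.74 in the other grafts. Their part in the change of Cd53 was not tested. The macrophage genes Csf1r (0.07 ± 0.28, adjusted p = 0.898) and Adgre1 (0.08 ± 0.24, adjusted p = 0.843) did not pass, with standard errors that allow changes in either direction.

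**Figure D4:**
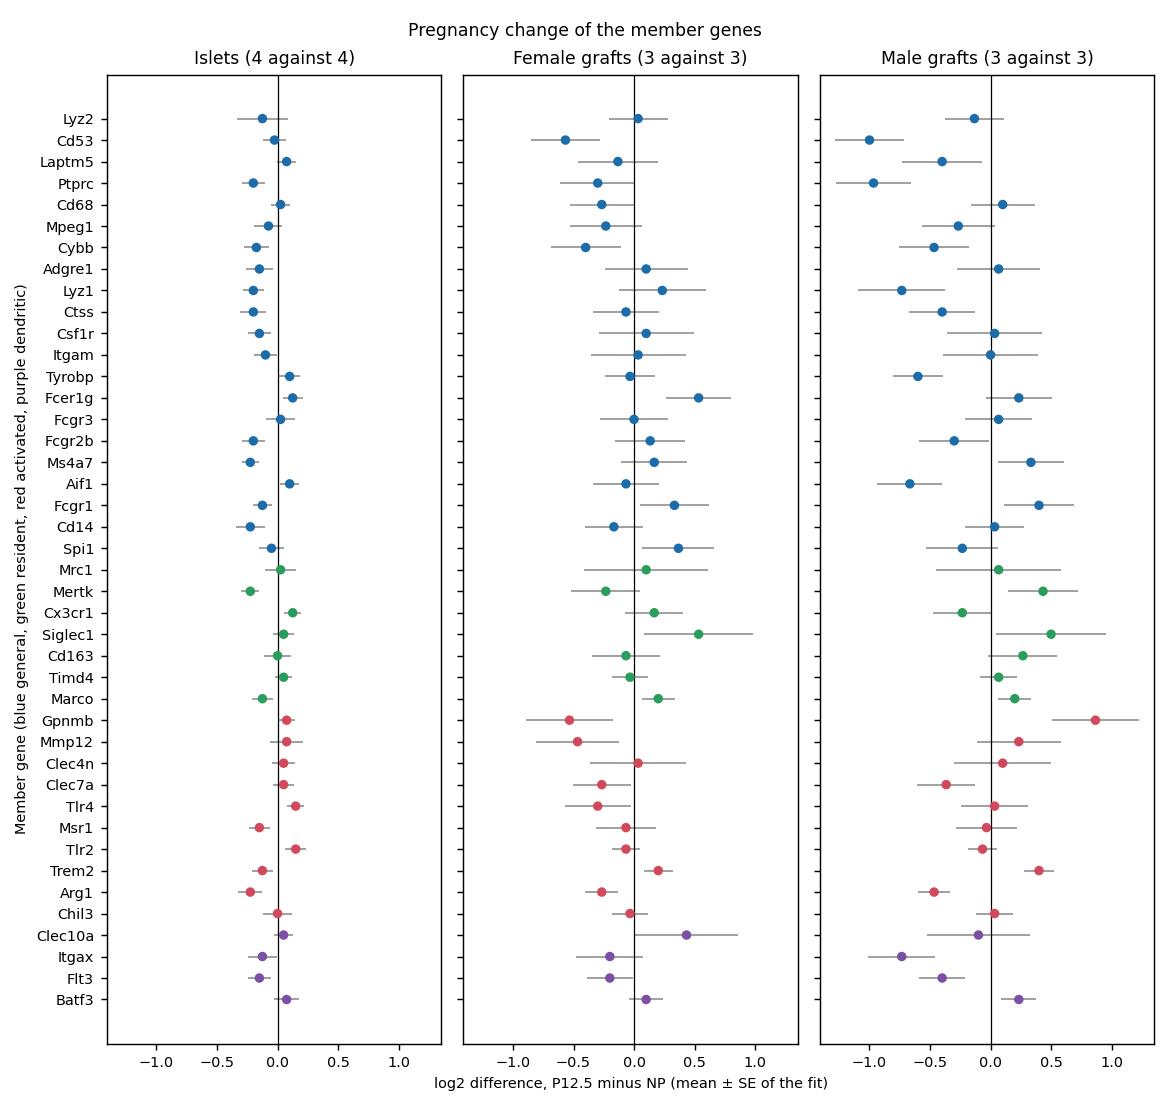
Mean log2 difference between P12.5 and NP for the 42 genes in islets, female grafts and male grafts, with the standard error of the fit as bars. In islets all 42 genes lie between -0.23 and 0.15, standard errors are wider in grafts, and Cd53 and Ptprc lie farthest to the left in male grafts (-1.0 and -0.97).

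Among the 61 further myeloid genes, 1 was called with pregnancy in female grafts, in male grafts and over both, and it was the same gene each time. Of all probe sets 1.70%, 0.932% and 3.96% were called in these comparisons, so a count of 1 of 61 says nothing about the list. Of the 61 differences 24, 38 and 36 were below 0 and 35, 22 and 25 above it. In male grafts 16 of the 61 genes were lower without overlap, beside 9.38% of all probe sets, and 4 were higher, beside 8.72%. Among these 16 were 7 of the 10 further dendritic cell genes and 5 of the 10 signalling and oxidase genes, and all 10 of the latter had differences below 0 (-0.87 to -0.27), but none of these genes was called. The one called gene was Cd5l. Cd5l encodes a secreted scavenger-like protein of tissue macrophages. Its levels were 4.2 to 4.6 in NP islets, 4.3 to 4.8 in P12.5 islets, 4.0 to 5.0 and 5.4 to 5.6 in female NP and P12.5 grafts, and 4.8 to 5.0 and 5.7 to 6.2 in male NP and P12.5 grafts. The groups did not overlap in either donor sex. Cd5l was higher by 1.03 ± 0.22 (adjusted p = 0.0394) in female grafts, by 1.10 ± 0.22 (adjusted p = 0.0424) in male grafts and by 1.07 ± 0.15 (adjusted p = 0.00334) over both, and by 0.15 ± 0.13 (adjusted p = 0.74) in islets, which did not pass. NP levels were near the lower quartile, so these sizes are not exact.

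None of the 42 genes was called between donor sexes. In NP grafts 0 of the 42 were called (0.0141% of all probe sets), and 5 had an unadjusted p under 0.05 (1777 of all 35511 probe sets). The smallest p-values were those of Ptprc (0.83 ± 0.31, adjusted p = 0.928) and Tyrobp (0.53 ± 0.21, adjusted p = 0.964), both higher in male grafts. Without overlap, 4 general genes were higher in male NP grafts, Ptprc, Cd53, Tyrobp and Lyz1, which is 9.52% of the 42 beside 3.38% of all probe sets. Mertk alone was lower without overlap, at 6.9, 6.7 and 6.7 in male and 7.1, 7.1 and 7.0 in female NP grafts. The same male arrays had the highest lymphocyte means, and the B cell gene Ms4a1 was called higher in them (1.53 ± 0.19, adjusted p = 0.043). The part of that was not tested. In P12.5 grafts 0 were called (0.0113% of all probe sets), and 4 had an unadjusted p under 0.05 (1270 of all 35511 probe sets). The smallest p-values were those of Gpnmb (1.03 ± 0.36, adjusted p = 0.977) and Arg1 (-0.33 ± 0.13, adjusted p = 0.977).

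Tests of the differences between responses found 0 genes. The interaction of donor sex with pregnancy had 0 calls among the 42 and in 0% of all probe sets, with 1 gene at an unadjusted p under 0.05. Its smallest p-values were those of Gpnmb (1.40 ± 0.51, adjusted p = 0.955) and of Lyz1 and Tyrobp, which were equal (Lyz1 -0.97 ± 0.51, adjusted p = 0.955). For Gpnmb the pregnancy difference was -0.53 ± 0.36 (adjusted p = 0.431) in female and 0.87 ± 0.36 (adjusted p = 0.218) in male grafts. The interaction of transplantation with pregnancy in female islets had 0 calls among the 42 (0.0507% of all probe sets), with 1 gene at an unadjusted p under 0.05, and its smallest p-values were those of Trem2 (0.33 ± 0.15, adjusted p = 0.328) and Marco (0.33 ± 0.16, adjusted p = 0.372). The standard errors of these interactions had a median of 0.39 and 0.31, so differences of that order lie within their error.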

How the data were processed

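RNA was hybridised to Affymetrix MoGene 1.0 ST arrays. The authors normalized the arrays by robust multichip analysis with aroma.affymetrix and deposited log2 values per probe set, rounded to 1 decimal. This scale compresses changes of low transcripts. The annotation's genome build is not given in the sources used here. Arrays were grouped by title, and their number limits the precision. For each gene the brightest probe set with 1 symbol was used, by its mean over the 20 arrays. Differences were tested two-sided with limma 3.58.1 in R 4.3.3 (lmFit and eBayes, a term per group), on 8 islet arrays, 12 graft arrays or, for grafts against islets, all 20. Benjamini-Hochberg adjustment ran across the 35511 probe sets in each of 10 comparisons. The script was tested on simulated data.

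Members and lists were chosen with earlier results of these data known. By rule, levels per array were given for listed genes, and changes for the called genes (where more than 12 were called, the 3 largest of each class and direction) or, with none called, the 2 of smallest p. Other changes of members, such as those of Ptprc, Spi1, Cd14, Clec7a and Tlr2, were added after their values were seen. Of 178 further list entries 165 were measured. Replicates of a group correlated with r from 0.971 to 0.989, and 0 pairs of arrays were identical. Promoter letters were searched on both strands. Alternatives covered single arrays left out, centring, quantile normalization, a filter on low values, the replicate block, the variance prior, the probe set of a gene, the call rule, the arrays in the fit and kidney signal. Protein sequences were not used here.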

Additional observations from a re-analysis of the deposited data

Results flagged for a closer look

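For normal values without rounding, chance alone gives about 1 in 20 by Dixon's criterion, a share that need not hold for rounded values. In groups of 4 islet arrays, 1 array stood apart from the other 3 by this criterion for 11 of 84 gene and group pairs. In NP islet array 4 these were Laptm5 (6.3), Csf1r (6.5), Siglec1 (5.9) and Gpnmb (5.1). In NP islet array 2 they were Fcer1g (6.7) and Fcgr1 (5.4), and in NP islet array 3 Cx3cr1 (6.4) and Tlr4 (4.3). Among P12.5 islets they were Lyz2 (6.5) and Batf3 (6.6) in array 1 and Tyrobp (5.8) in array 4. Except for Lyz2, at 6.5 beside 5.9, 6.0 and 5.9, the other 3 arrays shared 1 rounded value in each case, so a step of the rounding can be enough to set an array apart. Ms4a7 in P12.5 islets, at 4.4 in all 4 arrays, is counted among the 84 pairs although it could not be flagged. Groups of 3 grafts were not examined by this criterion.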

How the results depend on the processing

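Of 170 recomputed counts of called genes, 158 stayed within 1.5 times the count reported and 12 did not. Of 675 recomputed changes of single named genes, 654 kept their direction and their side of the threshold, 18 lost the call, 3 gained one and 0 changed direction. Of 680 recomputed medians of a gene class, 666 moved by less than the spread between replicates and 14 by more. In NP female grafts against islets, the general median of 1.73 became 1.53 to 1.88 in those that moved, the activated median of 1.10 became 0.97 to 1.43 and the dendritic median of 0.98 became 0.90. Some alternatives could not move a difference, namely the call rule, the variance prior and the groups sharing a fit. The choice of probe set could not either, as each listed gene had only 1. These alternatives are among the 675 and 680, so the counts of kept directions and of unmoved medians overstate the stability of the differences. In male grafts, P12.5 against NP, all 20 arrays in one fit gave 2 called genes in place of 0. Over grafts of both donor sexes the 1 called gene became 0 with the replicate number as a block (Cd53 adjusted p = 0.0505), 0 with the kidney mean as a covariate, 3 by adjusted p alone (beside 4602 of all 35511 probe sets) and 2 with all 20 arrays in one fit. Leaving out 1 array at a time gave 0 to 2 there, 33 to 34 for NP female grafts against islets, 28 to 34 in P12.5 (28 without female P12.5 graft array 3) and 0 for the other 7 comparisons. The cause was not tested. The deviations of 22 same-numbered pairs of arrays correlated between -0.242 and 0.375, 5 of them above 0.1. The highest were those of female with male P12.5 grafts, at 0.278 for replicate 2 and 0.375 for replicate 3. Whether arrays of the same number share a batch was not tested. The replicate block changed no other count by over 1.5 times. Subtracting array medians moved the median of all probe sets by 0.10 downwards in male grafts (-0.10). Values near the lower quartile of the arrays limit what can be seen for Chil3, Cd163 and Timd4.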
